A study of Mus musculus with 12 samples.

Results

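Zinc and copper are carried, stored and sensed by proteins of their own, and 32 genes of these systems were followed in HT22 cells, an immortalized cell line derived from mouse hippocampus. The genes were taken by name from the deposited tables. They comprised 10 genes of the Slc30a family (Slc30a1 to Slc30a10), grouped by family as zinc exporters, and 12 zinc importers of the Slc39a family. To these came 2 metallothioneins (Mt1 and Mt2) and the zinc-sensing transcription factor Mtf1. The copper genes were 2 importers (Slc31a1 and Slc31a2), 2 pumps (Atp7a and Atp7b) and 3 chaperones (Atox1, Ccs and Cox17). Slc39a8 and Slc39a14, which also carry iron, were left out. All 32 were listed among the 24343 genes used, and 23 of them reached an expression level of at least 0.5 FPKM (fragments counted for a gene, corrected for gene length and for library size) in at least 3 libraries and were tested.

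The 12 RNA-seq libraries formed 4 groups of 3 biological replicates of the same cell line. Cells received control siRNA (siControl) or siRNA against Ncoa4 (siNCOA4), and each siRNA was combined with or without DFO, an iron chelator, at 100 µM for 24 h. The combined groups are written siControl+DFO and siNCOA4+DFO, and a change with DFO refers to siControl+DFO against siControl unless stated. The siRNA was delivered by liposomes, so that loss of Ncoa4, the receptor that brings ferritin to autophagy, was a transient knockdown and not a deletion. The question was whether iron chelation also shifted genes of zinc and copper handling.

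Zinc transporters of the Slc30a family mostly move zinc out of the cytosol, into organelles or out of the cell. Those of the Slc39a family move it into the cytosol. Metallothioneins are small cysteine-rich proteins that bind zinc and copper, and their genes are switched on by Mtf1, which binds short metal response elements when cytosolic zinc is high. Copper enters through Slc31a1, is handed by chaperones to its target proteins and is pumped into the secretory pathway or out of the cell by Atp7a and Atp7b, while zinc released at synapses and copper-loaded enzymes are both of interest in the hippocampus.

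The targeted gene was checked first. Ncoa4 lay between 6.02 and 6.46 FPKM in siControl and between 0.77 and 0.952 in siNCOA4. It lay between 7.52 and 8.7 in siControl+DFO and between 0.85 and 1.57 in siNCOA4+DFO. Tfrc, the transferrin receptor, whose transcript is stabilized when iron is short, lay between 68.6 and 72.5 FPKM in siControl and between 318 and 348 in siControl+DFO. Of 13 neuron markers, 4 reached 0.5 FPKM in any library, and Gad1 was listed at 0 throughout. Dlg4 lay between 11.4 and 15.1 FPKM in siControl and between 5.95 and 9.04 in siControl+DFO. Tubb3 lay between 7.42 and 8.28 FPKM in siControl and between 11.8 and 13.6 in siControl+DFO. Syn1 lay between 5.29 and 5.83 and between 4.89 and 5.79 FPKM in the same groups, and Syp reached at most 0.554 FPKM in any library. The summed level of 5 fibroblast markers lay between 1280 and 1570 FPKM in siControl, between 728 and 930 in siNCOA4, between 347 and 464 in siControl+DFO and between 394 and 482 in siNCOA4+DFO. Lum was the only one of the 5 below 1 FPKM in siControl. Single markers of astrocytes (Slc1a3) and microglia (Tmem119) fell with DFO too, another astrocyte marker, Aldh1l1, rose (0.86 on the log2 scale, limma adjusted p = 0.0175), and Aqp4, P2ry12, Olig2 and Sox10 were at or near 0. The summed fibroblast markers, Slc1a3, Tmem119, Aldh1l1, Tubb3 and Dlg4 thus moved with DFO beside the DFO results below. The fibroblast sum was also lower with siNCOA4, beside the siNCOA4 results. The part of these markers in those results was not tested. Fewer cells expressing a gene and less RNA per cell cannot be told apart in bulk RNA. Relative depth, read from the steps between low FPKM values, ranged from 0.928 to 1.41 times that of siControl replicate 1. It was highest in siNCOA4, at 1.26 to 1.41. The ranges were 1 to 1.25 in siControl, 1.06 to 1.25 in siControl+DFO and 0.928 to 1.2 in siNCOA4+DFO.

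The letters of metal response elements were looked for in promoter windows, because Mtf1 binds such elements at metallothionein genes. Whether the matches bear on the results below was not tested. The letters TGCACNC and TGCGCNC were searched on both strands of RefSeq windows from 250 bases before to 50 bases after the annotated start (GRCm38.p6), and matches on opposite strands could overlap. The windows used covered 27 of the 32 genes, without Ccs, Cox17, Slc30a8, Slc39a4 and Slc39a6, and 15 of the 27 genes held at least 1 match. Some genes had more than 1 window. Counted by window, 16 of the 31 windows of these genes held a match, against 25.7% of all 32851 windows. Mt2 held 4 matches, Mt1, Slc30a4 and Slc30a10 held 3 each, Slc30a1, Slc30a2 and Atp7a held 2 each, and Slc31a2 held 1. At least 3 matches were found in 1.97% of all windows. No match to these letters lay in the windows of Mtf1, Slc39a1, Slc39a7, Slc39a10 or Slc31a1. A match is a description of the sequence and was not tested for binding.

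The 250 bases before the start of Mt2, at chr8:94172368-94172617 on the plus strand, are shown in full because Mt2 held the most matches, 3 of its 4 lying before the start. Capitals mark the letters of the element, read on either strand.
Mt2: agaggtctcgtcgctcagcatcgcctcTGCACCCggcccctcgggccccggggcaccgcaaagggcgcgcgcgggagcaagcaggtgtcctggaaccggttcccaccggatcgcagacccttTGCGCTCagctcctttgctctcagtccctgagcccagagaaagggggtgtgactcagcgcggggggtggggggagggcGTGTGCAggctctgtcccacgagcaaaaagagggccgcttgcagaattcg

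Matches before the annotated start of the window are shown with 10 bases on each side. They are given for Mt1, the neighbouring metallothionein, for the zinc exporters Slc30a1 and Slc30a4, and for the copper gene Slc31a2. Each is written 5′ to 3′ on the strand of its gene with the element in capitals. They lie at chr8:94179056-94179082 (plus strand), chr1:191906728-191906754 (plus strand), chr2:122702875-122702901 and chr2:122702739-122702765 (both minus strand) and chr4:62286181-62286207 (plus strand), in the order printed. The start used for a window is not always the first base of the gene. The matches of Mt1, Slc30a1 and Slc31a2 lie inside the gene coordinates (chr8:94178883-94180327, chr1:191906697-191913248 and chr4:62280393-62298412).
Mt1: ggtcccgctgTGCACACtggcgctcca
Slc30a1: cgggggttccGAGTGCAaagcaaagtt
Slc30a4, distal: cgggggctcaGAGCGCAcaagacctca
Slc30a4, proximal: cgcgcctcgcGGGCGCAcgcgccgcct
Slc31a2: cttttaatttTGCACTCaacatgtgtt

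The levels of the genes spanned several orders of magnitude. Mt1 was the most abundant of the 32, at 181 to 339 FPKM over the 12 libraries, and Slc39a7 at 48.1 to 129, Mt2 at 40.5 to 128, Cox17 at 53.9 to 132 and Atox1 at 38.4 to 81.2 FPKM followed. Among the zinc exporters, Slc30a4 and Slc30a9 stood highest, at 28.3 to 56.1 and 24.9 to 45.8 FPKM, and the plasma membrane exporter Slc30a1 reached only 3.13 to 5.67. The 9 genes that were not tested were Slc30a2, Slc30a3, Slc30a8, Slc30a10, Slc39a2, Slc39a4, Slc39a5, Slc39a12 and Atp7b. Slc30a3, which fills synaptic vesicles with zinc, Slc30a8, the zinc transporter of insulin granules, and Slc39a12 were listed at 0 in all 12 libraries.

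**Figure D1:**
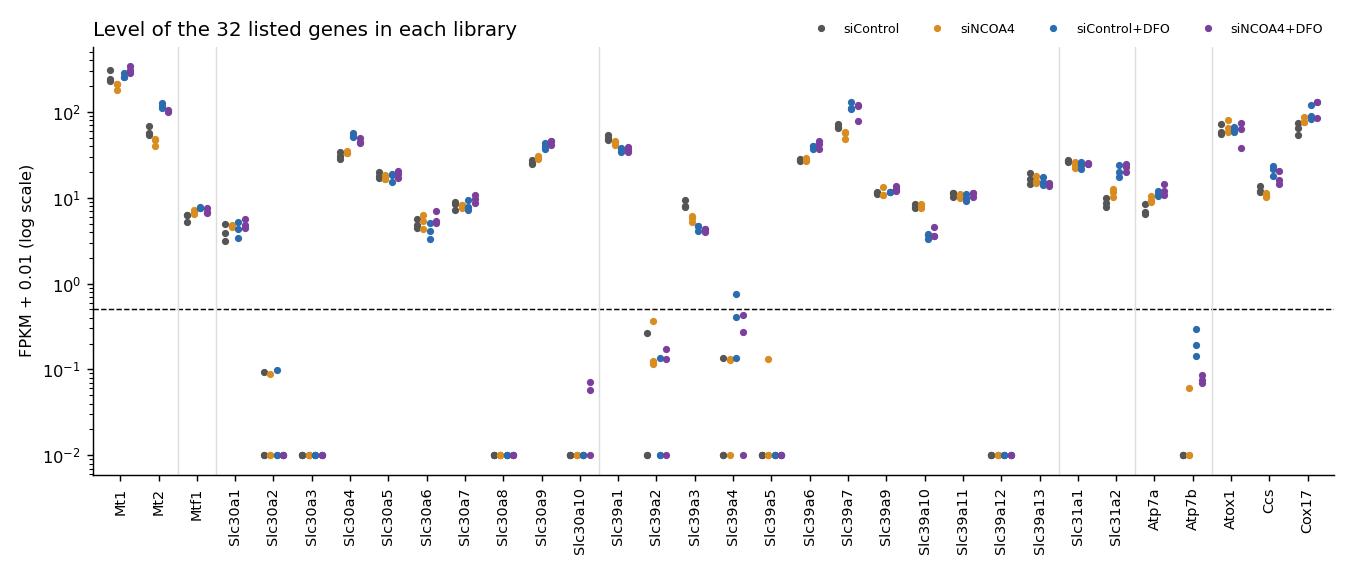
FPKM of each of the 32 genes in each library on a log axis (0.01 was added so that values of 0 could be drawn), coloured by group, with vertical lines between the roles (metallothioneins, zinc sensor, zinc exporters, zinc importers, copper importers, copper pumps and copper chaperones). The dashed line marks the minimum of 0.5 FPKM, and 9 genes did not reach it in 3 libraries.

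Values of the remaining silent genes were whole multiples of 1 smallest step once depth was taken into account, which gives the number of fragments behind them. Atp7b, the second copper pump, stood at 0, 0 and 0 fragments in siControl, at 0, 0 and 1 in siNCOA4, at 2, 5 and 3 in siControl+DFO and at 1, 1 and 1 in siNCOA4+DFO. Slc39a4, the zinc importer of the intestine, stood at 0, 1 and 0 fragments in siControl, at 1, 1 and 0 in siNCOA4, at 5, 1 and 3 in siControl+DFO and at 3, 2 and 0 in siNCOA4+DFO. Slc30a2, Slc30a10, Slc39a2 and Slc39a5 had between 1 and 10 fragments over all 12 libraries together. These genes lay below the minimum and were not tested in the reported fit. With no filter on low values 29 of the 32 genes were tested, and of the added genes Atp7b alone passed in limma, beyond 2-fold with DFO and at any fold in siNCOA4+DFO against siControl, on at most 5 fragments in a library.

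Iron chelation changed zinc and copper genes in both directions, and most changes were below 2-fold. Of the 23 genes tested, 10 (43.5%) rose and 3 (13%) fell with DFO (adjusted p below 0.05 in limma with Benjamini-Hochberg adjustment). Over all 11924 genes tested, 27.7% rose and 25.7% fell at the same threshold. Only the copper gene Slc31a2 and the zinc importer Slc39a10 also passed a fold change of 2, whereas 18.8% of all genes did. The median size of the change was 0.468 on the log2 scale for the 23 genes and 0.473 for all genes tested. When each library was scaled to the same total over the genes tested, 8 rose and 5 fell: Mtf1 and Cox17 no longer passed, and Slc39a11 and Slc31a1 were added to those that fell. Under that scaling 6643 of all 11924 genes passed in either direction.

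**Figure D2:**
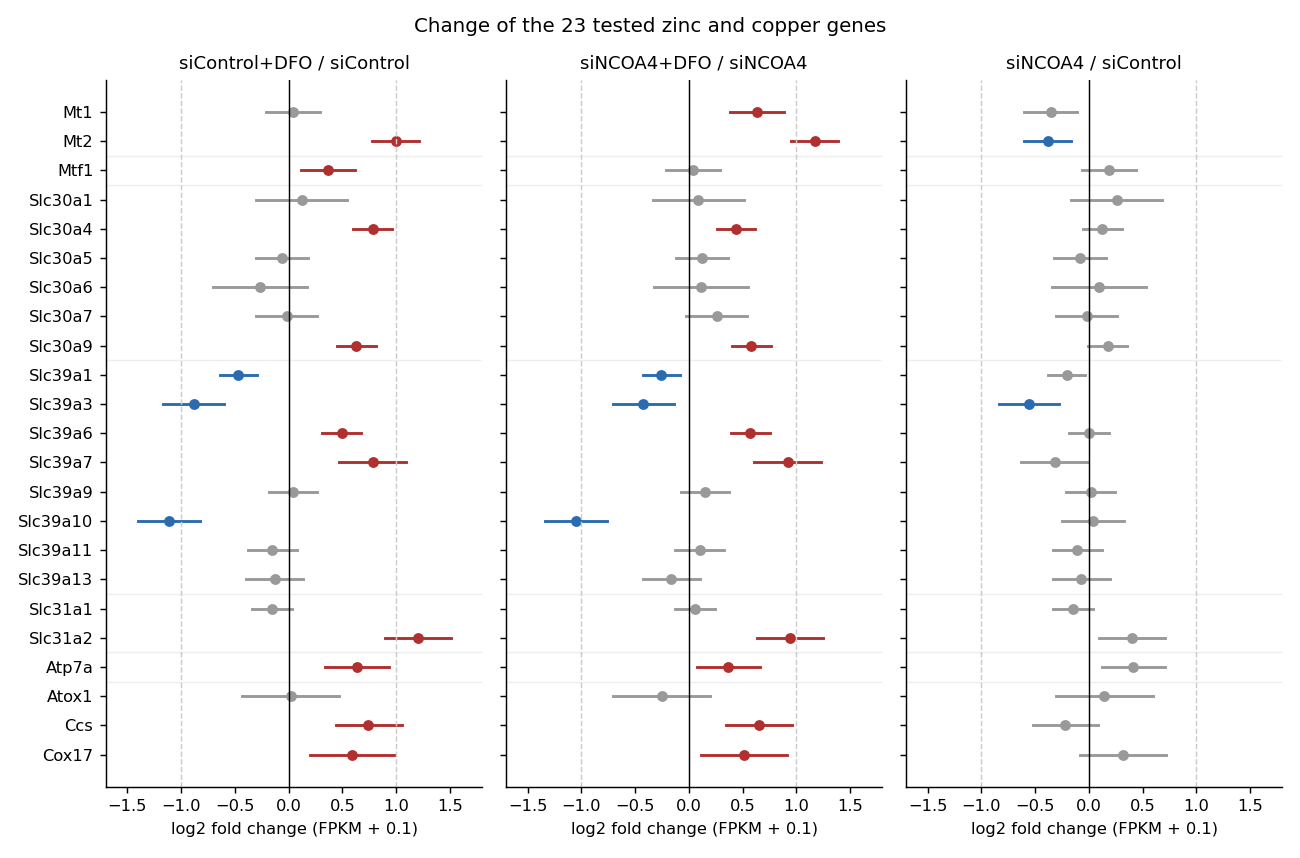
Log2 fold change of log2(FPKM + 0.1) with its 95% confidence interval for the 23 tested genes with DFO (left), with DFO in siNCOA4 cells (middle) and with siNCOA4 alone (right), in order of role. Red marks genes that rose and blue genes that fell (adjusted p below 0.05), grey marks the others and dashed lines mark a 2-fold change; Slc31a2 and Slc39a10 lie beyond them in the left panel.

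Of the metallothioneins, Mt2 responded to DFO and Mt1 did not pass the test. Mt2 (chr8:94172618-94173567) stood at 53.3, 57.2 and 68.6 FPKM in siControl and at 111, 116 and 128 in siControl+DFO. It stood at 47.5, 40.5 and 48.8 FPKM in siNCOA4 and at 102, 101 and 105 in siNCOA4+DFO. Every library with DFO lay above every library without it, for both siRNAs. The rise was 0.99 ± 0.10 (log2, SE, n = 3) with DFO, which is 1.99-fold and just under the threshold of 2 (limma adjusted p = 5.59e-06), and 1.17 ± 0.10 or 2.25-fold in siNCOA4 cells (adjusted p = 3.14e-06). Of the 75-base stretches of its GENCODE transcripts, 30.2% also occur in the antisense gene model Gm45774, whose reads can be told from those of Mt2 only by strand.

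Mt1 (chr8:94178883-94180327), which lies next to Mt2 on chromosome 8, stood at 307, 239 and 231 FPKM in siControl and at 256, 255 and 281 in siControl+DFO. It stood at 211, 211 and 181 FPKM in siNCOA4 and at 339, 285 and 309 in siNCOA4+DFO. The siControl and siControl+DFO libraries overlapped, with siControl replicate 1 above all 3 of the treated libraries, whereas siNCOA4 lay wholly below siNCOA4+DFO. The change of Mt1 with DFO was 0.04 (log2, 95% confidence interval -0.211 to 0.288, limma adjusted p = 0.801), and its sign turned to -0.13 when libraries were scaled to the same total. In siNCOA4 cells Mt1 rose with DFO by 0.63 ± 0.12 (log2, SE, adjusted p = 8.19e-04), or 1.55-fold. The difference between these DFO effects was 0.59 (95% confidence interval 0.24 to 0.946, unadjusted p = 0.00325) and did not pass the adjustment over all genes (limma adjusted p = 0.078). Of all genes, 2.1% passed that test of the difference, and 0 of the 23 did. An unadjusted p below 0.05 was reached by 3 of them (Mt1, Slc30a4 and Slc39a3), and the share of all genes at that level is not given here. Under scaling to the same total Slc30a4 passed the test of the difference (-0.47, limma adjusted p = 0.0386), as 614 of all 11924 genes did.

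The ratio of Mt2 to Mt1 FPKM, chosen after the values were seen, was 0.174, 0.24 and 0.297 in siControl and 0.435, 0.455 and 0.456 in siControl+DFO. It was 0.225, 0.192 and 0.27 in siNCOA4 and 0.299, 0.354 and 0.34 in siNCOA4+DFO. The ratio was higher in every DFO library than in every library of the same siRNA without DFO. The log2 ratio rose by 0.96 with DFO and by 0.54 with DFO in siNCOA4 cells, each with an exact two-sided permutation p of 0.1, which is the smallest that 3 against 3 libraries allow. Because both genes are read in the same library, the ratio does not depend on how libraries are scaled.

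**Figure D3:**
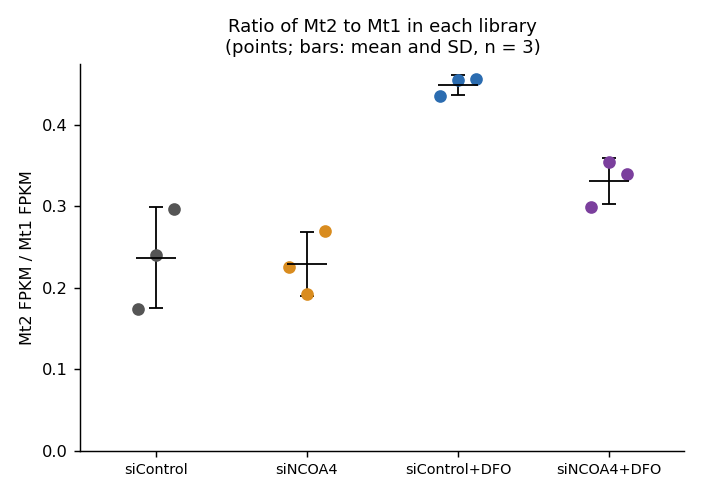
Ratio of Mt2 FPKM to Mt1 FPKM in each of the 12 libraries (points) by group, with the mean and SD of 3 libraries (bars) on an axis that starts at 0. The siControl+DFO libraries lie between 0.435 and 0.456, above the 0.174 to 0.297 of siControl.

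Mtf1, the factor that binds metal response elements, changed less than Mt2 with DFO. It stood at 6.37, 6.3 and 5.26 FPKM in siControl and at 7.61, 7.66 and 7.9 in siControl+DFO, without overlap. In siNCOA4 it stood at 7.15, 6.47 and 6.77 FPKM and in siNCOA4+DFO at 7.55, 6.79 and 6.67, which overlapped. The rise with DFO was 0.37 ± 0.12 (log2, SE, limma adjusted p = 0.0169), and it did not pass without siControl replicate 3 (0.28, adjusted p = 0.0771) or with libraries scaled to the same total (0.21, adjusted p = 0.161).

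Other genes reported as targets of Mtf1 or of metal response elements were read from a list. Of the 8 listed, 5 were tested, and 4 of them rose with DFO and 0 fell, against 27.7% and 25.7% of all genes. In siNCOA4+DFO against siControl 2 of the 5 rose and 0 fell. Ndrg1, a stress-response gene that is also a target of hypoxia-inducible factor, rose by 3.16 (log2, adjusted p = 1.24e-08), Gclc, the catalytic subunit of glutathione synthesis, rose by 0.61 (adjusted p = 2.54e-04), and Sepw1, a selenoprotein, rose by 0.57 (adjusted p = 0.00318; all limma). Slc30a1, the exporter that is a textbook target of Mtf1, stood at 4.88, 3.13 and 3.84 FPKM in siControl, at 4.82, 4.69 and 4.51 in siNCOA4, at 3.39, 4.32 and 5.19 in siControl+DFO and at 4.46, 4.86 and 5.67 in siNCOA4+DFO. Its 4 groups overlapped, and its change with DFO was 0.12 (log2, 95% confidence interval -0.301 to 0.545, adjusted p = 0.622), with a sign that turned to -0.040 under scaling to the same total.

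Among the 6 tested genes of the Slc30a family, grouped as zinc exporters, 2 rose with DFO and 0 fell. Slc30a4, which loads zinc into endosomes and vesicles, averaged 31.2 ± 2.99 FPKM (SD, n = 3) in siControl and 53.5 ± 2.51 in siControl+DFO, a rise of 0.78 ± 0.08 (log2, SE, limma adjusted p = 7.32e-06). It averaged 33.9 ± 1.18 FPKM in siNCOA4 and 46 ± 2.83 in siNCOA4+DFO, a rise of 0.44 (adjusted p = 9.8e-04) that did not pass under scaling to the same total (0.14, adjusted p = 0.172). All DFO libraries of Slc30a4, at 43.8 FPKM or more, lay above all libraries without DFO, at 35.2 or less. Slc30a9, which exports zinc from mitochondria, rose from 26.1 ± 1.55 to 40.4 ± 3.37 FPKM with DFO (0.63 on the log2 scale, adjusted p = 4.66e-05) and from 29.4 ± 1.07 to 44 ± 2.79 in siNCOA4 cells (0.58, adjusted p = 1.41e-04). Slc30a5, Slc30a6 and Slc30a7, the zinc transporters of the early secretory pathway, did not pass, at 15.2 to 20.5, 3.26 to 6.91 and 7.2 to 10.8 FPKM over all libraries.

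The zinc importers split. Of 8 tested, 2 rose and 3 fell with DFO. Slc39a10 (chr1:46807544-46925776), a plasma membrane importer, had the largest fall, from 8.35, 7.85 and 7.53 FPKM in siControl to 3.71, 3.32 and 3.81 in siControl+DFO. In siNCOA4 it stood at 8.25, 8.55 and 7.55 FPKM and in siNCOA4+DFO at 3.54, 3.61 and 4.53. No DFO library exceeded 4.53 FPKM and no other library was below 7.53. The fall was 1.11 ± 0.13 on the log2 scale (SE), or 2.16-fold, with DFO (limma adjusted p = 2.15e-05) and 1.05, or 2.07-fold, in siNCOA4 cells (adjusted p = 5.7e-05).

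Slc39a3, a second plasma membrane importer, fell with both treatments. It averaged 8.41 ± 0.814 FPKM (SD, n = 3) in siControl, 5.68 ± 0.474 in siNCOA4, 4.5 ± 0.362 in siControl+DFO and 4.21 ± 0.242 in siNCOA4+DFO. The fall was 0.88 ± 0.13 (log2, SE) with DFO (limma adjusted p = 1.09e-04) and 0.56 ± 0.13 with siNCOA4 (adjusted p = 0.0166), and the latter did not pass without siControl replicate 2 (adjusted p = 0.0688), without siNCOA4 replicate 2 (adjusted p = 0.0712) or under scaling to the same total (adjusted p = 0.0573). Slc39a1, also at the cell surface, fell from 50.3 ± 3.11 to 36.3 ± 2.25 FPKM with DFO (-0.47 on the log2 scale, adjusted p = 3.14e-04).

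The 2 importers that rose act at different membranes. Slc39a7, which releases zinc from the endoplasmic reticulum into the cytosol, rose from 67.7 ± 3.94 to 117 ± 11 FPKM with DFO (0.78 on the log2 scale, limma adjusted p = 5.99e-04) and from 54.4 ± 5.56 to 104 ± 22.5 in siNCOA4 cells (0.92, adjusted p = 2.65e-04). The siNCOA4+DFO libraries stood at 116, 119 and 78.5 FPKM, and without replicate 3, which was the lowest of them, the rise was 1.11. For Slc39a7, 71.6% of the 75-base stretches of its GENCODE transcripts also occur in the overlapping gene model Gm20427, so that its reads may have been shared with it. Slc39a6, a plasma membrane importer, rose from 27.7 ± 0.815 to 39 ± 1.84 FPKM with DFO (0.49, adjusted p = 3.73e-04) and from 27.7 ± 1.11 to 41.4 ± 4.53 in siNCOA4 cells (0.57, adjusted p = 1.8e-04). Slc39a9, Slc39a11 and Slc39a13, which are found largely at the Golgi apparatus, did not pass with DFO, at 10.7 to 13.8, 9.15 to 11.5 and 13.7 to 19.6 FPKM over all libraries.

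**Figure D4:**
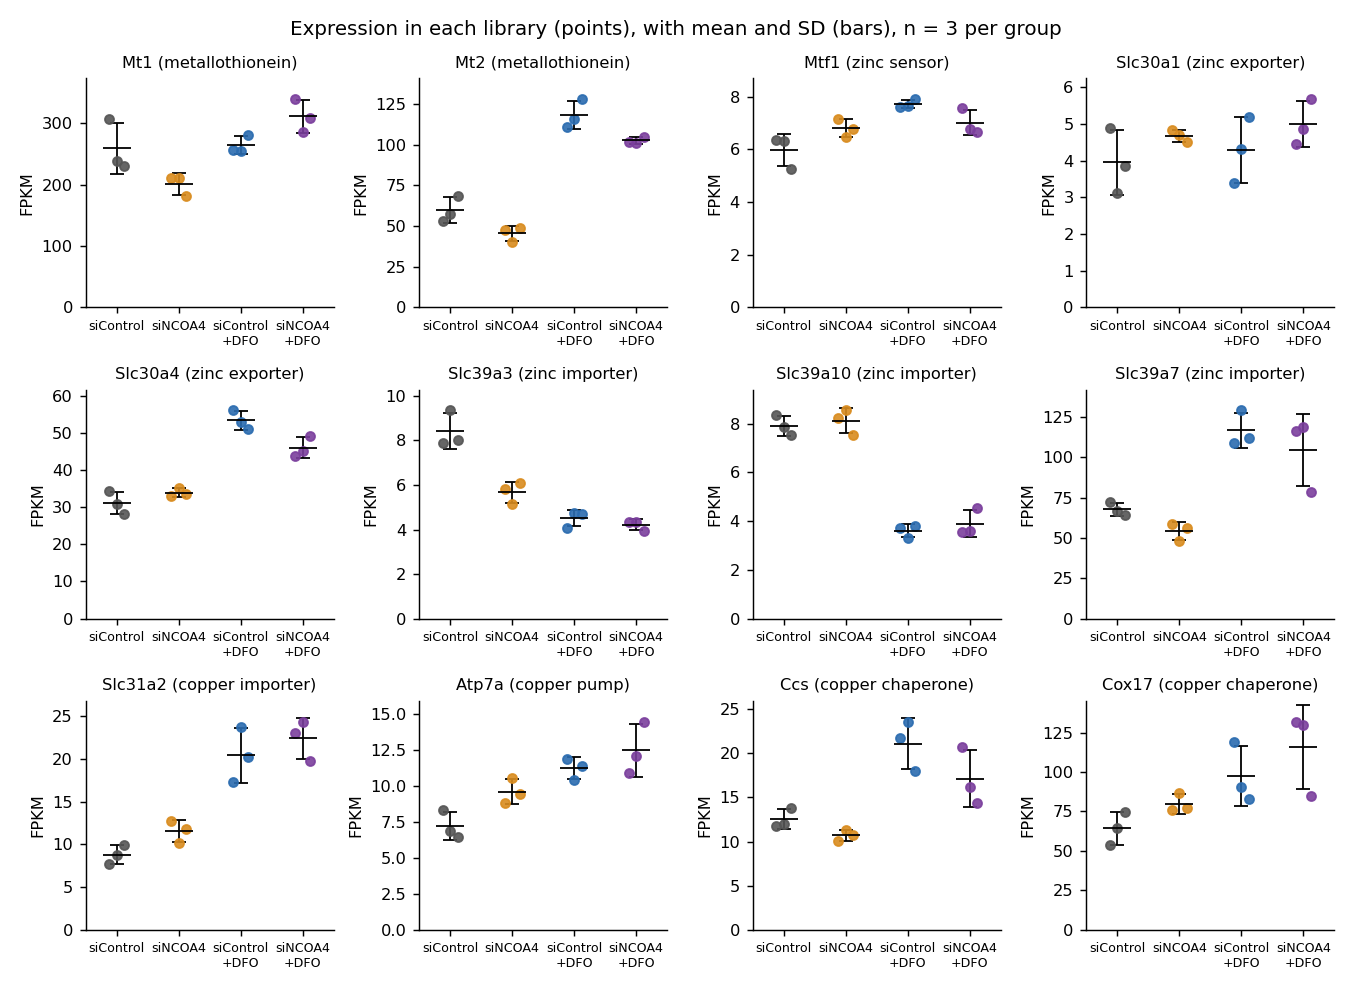
FPKM of 12 zinc and copper genes in each library (points) with the mean and SD of 3 libraries (bars), on axes that start at 0. Mt2, Slc30a4, Slc39a7, Slc31a2 and Ccs lie higher and Slc39a10 lower in the libraries with DFO, and Slc39a3 lies lower in every group than in siControl.

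Of the 6 copper importers, pumps and chaperones tested, the change with DFO was largest for Slc31a2 (chr4:62280393-62298412), a relative of the copper importer Slc31a1 that resides largely in endosomes and lysosomes. It stood at 7.71, 8.75 and 9.89 FPKM in siControl and at 17.3, 23.8 and 20.2 in siControl+DFO. In siNCOA4 it stood at 12.8, 10.2 and 11.8 FPKM and in siNCOA4+DFO at 23.1, 24.4 and 19.8. The groups with DFO lay wholly above those without, and siNCOA4 lay wholly above siControl. The rise was 1.20 ± 0.14 (log2, SE), or 2.3-fold, with DFO (limma adjusted p = 1.8e-05) and 0.95, or 1.93-fold, in siNCOA4 cells (adjusted p = 2e-04), and siNCOA4 alone gave 0.40 (adjusted p = 0.0924). Slc31a1 (chr4:62360583-62391769), the copper importer of the plasma membrane and its neighbour on chromosome 4, had 21.5 to 27.5 FPKM over all libraries and a change with DFO of -0.16 (95% confidence interval -0.345 to 0.0268, adjusted p = 0.136).

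Of the pumps and chaperones, 3 of 4 tested genes rose with DFO. Atp7a, which carries copper into the secretory pathway, rose from 7.24 ± 1 to 11.2 ± 0.781 FPKM (0.64 on the log2 scale, limma adjusted p = 0.0018), and siNCOA4 cells had 9.63 ± 0.906 without and 12.5 ± 1.82 with DFO. Ccs, which inserts copper into superoxide dismutase 1, rose from 12.5 ± 1.12 to 21.1 ± 2.87 FPKM (0.74, adjusted p = 7.41e-04). Cox17, which carries copper to cytochrome c oxidase in mitochondria, rose from 64.4 ± 10.5 to 97.4 ± 19.3 FPKM (0.59, adjusted p = 0.016).

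The groups of these genes did not overlap with DFO, and the call for Cox17 depended on single libraries. It did not pass without siControl replicate 1 (0.47, adjusted p = 0.0663), without siControl+DFO replicate 1 (0.44, adjusted p = 0.0731) or under scaling to the same total (0.42, adjusted p = 0.0555; all limma). Atox1, which hands copper to the pumps, averaged 61.9 ± 9.22 FPKM (SD, n = 3) in siControl and 62.4 ± 4.5 in siControl+DFO. Its lowest value, 38.4 FPKM, was that of siNCOA4+DFO replicate 3, which also had the lowest Slc39a7 and Cox17 of its group.

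Further genes of copper use were read from companion lists. Of 14 tested genes of copper delivery, 3 rose and 5 fell with DFO, against 27.7% and 25.7% of all genes, among them Steap1 (0.89 on the log2 scale) and Chchd7 (0.79), which rose, and Steap2 (-0.90), which fell. Of 9 tested copper enzymes, 1 rose and 5 fell, against the same shares of all genes. Loxl1 (-1.52) and Lox (-1.38), which crosslink collagen and elastin, fell, while the summed fibroblast markers given above were lower with DFO too, and Loxl4 (1.14), of the same family, rose. Sod1, the enzyme that Ccs supplies, had 330 to 451 FPKM in siControl and 365 to 417 in siControl+DFO and did not pass (limma adjusted p = 0.808). Of 4 further zinc-related genes, Mt3, the metallothionein of the brain, and Tmem163 were listed at 0 in all libraries, and the zinc receptor Gpr39, the 1 that was tested, did not pass (adjusted p = 0.291).

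Knockdown of Ncoa4 alone moved few of these genes. With siNCOA4 against siControl, 0 of the 23 rose and 2 fell in the limma test, against 4.52% and 7.21% of all genes, and 0 passed a fold change of 2, as 1.78% of all genes did. An unadjusted p below 0.05 was reached by 7 of the 23, and the share of all genes at that level is not given here. The genes that fell were Slc39a3, given above, and Mt2, which fell by 0.38 ± 0.10 (log2, SE, adjusted p = 0.0299) from 59.7 ± 7.96 to 45.6 ± 4.44 FPKM. The fall of Mt2 passed with siControl replicate 1 or siNCOA4 replicate 3 left out, but not without siControl replicate 2 (adjusted p = 0.0572), siControl replicate 3 (0.0967), siNCOA4 replicate 1 (0.054) or siNCOA4 replicate 2 (0.121 as adjusted p). Mt1 was 0.36 lower (95% confidence interval -0.606 to -0.107) and did not pass (adjusted p = 0.0654), although its siNCOA4 libraries all lay below those of siControl. Under scaling to the same total 0 of the 23 fell and 2 rose, Slc30a9 and Atp7a, and 1602 of all 11924 genes passed in either direction.

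The combined treatment was compared with the same siControl libraries as each single treatment, so that these comparisons are not independent. Per the paper, both treatments together altered the shape of HT22 cells and lowered their viability, while neither alone lowered viability. The part of this in the siNCOA4+DFO values was not tested. In siNCOA4+DFO against siControl, 9 of the 23 rose and 3 fell, against 25.4% and 23.4% of all genes, and Slc31a2 (1.35) and Slc39a10 (-1.01) passed a fold change of 2, as 15.2% of all genes did. Slc39a3 (-0.98) was just under that threshold. Under scaling to the same total 8 of the 23 rose and 5 fell, and 6178 of all 11924 genes passed in either direction. Ccs (0.43, limma adjusted p = 0.0219) did not pass without siControl replicate 1 (adjusted p = 0.0635), siControl replicate 2 (0.067 as adjusted p) or siNCOA4+DFO replicate 1 (0.0981 as adjusted p), nor under scaling to the same total (0.24, adjusted p = 0.151) or with only the compared groups in the fit (adjusted p = 0.0521). Slc39a10 fell below the 2-fold threshold without siControl replicate 1 (-0.97) or siNCOA4+DFO replicate 1 (-0.95) or 2 (-0.96).

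Adding DFO to siNCOA4 cells gave 10 genes that rose and 3 that fell of 23, against 23.1% and 19.6% of all genes. Under scaling to the same total 7 rose and 6 fell, and 6322 of all 11924 genes passed in either direction. The next numbers are again those of the reported fit. Mt2 and Slc39a10 passed a fold change of 2, as 11.4% of all genes did. That number was 1 (Mt2) without siNCOA4+DFO replicate 1 or 2 and 4 without replicate 3, when Slc39a7 and Slc31a2 were added. The rise of Atp7a there was 0.37 (limma adjusted p = 0.0448), and it did not pass without each of 8 of the 12 libraries in turn, with an adjusted p of up to 0.154 without siNCOA4+DFO replicate 3, nor under scaling to the same total (0.069, adjusted p = 0.683). The rise of Cox17 was 0.51 (adjusted p = 0.0384) and did not pass without any one of the siNCOA4 libraries or without siNCOA4+DFO replicate 1 or 2 (adjusted p of up to 0.14), nor under scaling to the same total (0.21, adjusted p = 0.328). The falls of Slc39a3 (-0.42, adjusted p = 0.0198) and Slc39a1 (-0.26, adjusted p = 0.0199) did not pass without siNCOA4 replicate 1 (0.0579 and 0.0782 as adjusted p). Slc39a3 also missed it without siNCOA4 replicate 3 or siNCOA4+DFO replicate 3, and Slc39a1 without siNCOA4+DFO replicate 2.

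Between siNCOA4+DFO and siControl+DFO, 0 of the 23 genes passed in limma, at any fold or at 2-fold, where 16.5% and 2.09% of all genes did. An unadjusted p below 0.05 was reached by Slc30a4 (-0.22 on the log2 scale), Slc30a6 (0.48) and Ccs (-0.31), with adjusted p values of 0.0923, 0.124 and 0.148. Ccs passed without siNCOA4+DFO replicate 1 (-0.46, adjusted p = 0.0378). Tfrc, by contrast, lay between 224 and 264 FPKM in siNCOA4+DFO and between 318 and 348 in siControl+DFO.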

How the data were processed

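RNA was sequenced from 12 libraries of HT22 cells, in 4 groups of 3 taken from the sample labels. The authors deposited 1 FPKM value per gene and library. Per the labels, stranded total RNA libraries were made, and the submitters' processing notes name mm10, Trimmomatic 0.33, FastQC, HISAT2 2.1.0, featureCounts and edgeR; which tool gave the FPKM, and the strand setting of the counting, are not given in the sources used here. Of 24347 entries, the 4 sharing a name were dropped.

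The 11924 genes that reached 0.5 FPKM in 3 or more libraries were tested on log2(FPKM + 0.1), which understates changes of low genes, with a means model over all libraries in limma 3.58.1 (R 4.3.3; empirical Bayes with trend, 8 residual and 4.07 prior degrees of freedom), and p was adjusted by Benjamini-Hochberg over all genes. Genes below 0.05 rose or fell; a fold change above 2 was counted separately. The interaction was the DFO effect in siNCOA4 minus that in siControl. The fit was tested on simulated data. FPKM is not a count, total depth is unknown, and relative depth came from genes below 1 FPKM, with whole fragments accepted within 0.02. Values were given per library for genes beyond 2-fold in any comparison and for Mt1, Mt2, Mtf1 and Slc30a1, and up to 3 genes of each companion list were named by size of change, with Ncoa4 and Tfrc as checks; Sod1, Car5b and Car13 were named after their values were seen. The genes and lists were chosen with earlier results of these data known. Alternatives were pseudocounts of 1 and 0.01, other filters, scalings and moderation, a replicate block, fits of the compared groups alone and leaving out each library. Sequences came from RefSeq (GRCm38.p6) and GENCODE vM21 with Python 3.11.15, pandas 2.3.3 and scipy 1.17.1, and figures from matplotlib 3.10.9.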

Additional observations from a re-analysis of the deposited data

How the results depend on the processing

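The number of genes beyond 2-fold was 1 with a pseudocount of 1 in DFO against siControl, siNCOA4+DFO against siControl and siNCOA4+DFO against siNCOA4 (2 each as reported), where Slc39a10 dropped below the threshold. At any fold the numbers were 13, 12 and 13, and 2 for siNCOA4 against siControl. Scaling to the same total over the genes tested left 1 (Slc39a10) in siNCOA4+DFO against siNCOA4 and gave 1 in the interaction (Slc30a4, -0.47, adjusted p = 0.0386), and it turned the sign of Mt1 (-0.13) and Slc30a1 (-0.040) with DFO. That scaling moved the median log2 change of all genes to -0.173 with DFO, -0.3 with DFO in siNCOA4 cells and 0.116 with siNCOA4 (-0.0111, -0.00345 and 0.00478 as reported). The share of higher genes among all genes called moved from 58.8% to 45.4% with DFO, from 45.3% to 65.1% (36.4% by quantile) with siNCOA4, from 60.9% to 44.2% with both, from 66.4% to 37.4% for DFO in siNCOA4 cells, from 32% to 7.65% in the interaction, and from 51.4% to 39.8% by quantile for siNCOA4+DFO against siControl+DFO. Leaving out 1 library gave 1 to 4 genes beyond 2-fold in siNCOA4+DFO against siNCOA4, a change of Mt1 with DFO of -0.038 to 0.17 and one of Slc30a1 of -0.031 to 0.28. Scaling to the same total divides each library by its summed FPKM over the genes tested. These totals ran from 613427 to 627348 in siControl and from 564603 to 589169 in siNCOA4. They ran from 675365 to 722548 in siControl+DFO and from 689583 to 729160 in siNCOA4+DFO. With median-of-ratios scaling the shares were 59.1% with DFO, 45.7% with siNCOA4, 60.8% with both and 66.2% for DFO in siNCOA4 cells. Why the totals differed, and the cause of the other shifts, was not tested.

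With the replicate number as a block, 2, 0, 2, 0, 2 and 0 genes were called, as without it, and of the changes at any fold 1 was lost (Atp7a, DFO in siNCOA4 cells, adjusted p = 0.0715). The fall of Mt2 with siNCOA4 did not pass with quantile scaling (adjusted p = 0.0591), the same total (0.13), only the groups compared (0.0963) or no trend (0.0596). Same-numbered libraries of different groups correlated between -0.127 and 0.116 (18 pairs), so the numbers were not taken to pair them. FPKM gives no total depth, so no counting interval is given, and 9 of the 32 genes lay below the minimum. With no filter 29 were tested, and Atp7b was added to those beyond 2-fold with DFO (3 in all).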

Other observations

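Carbonic anhydrases, zinc enzymes that hydrate carbon dioxide, changed in both directions with DFO. Of 16 listed, 7 were tested, and 3 rose and 2 fell (limma, adjusted p below 0.05), against 27.7% and 25.7% of all genes. Car6, a secreted form, stood at 1.33, 1.27 and 0.915 FPKM in siControl and at 14.4, 15.9 and 17.7 in siControl+DFO. It stood at 0.613, 0.422 and 0.38 FPKM in siNCOA4 and at 7.22, 6.92 and 3.47 in siNCOA4+DFO, so that the DFO groups lay wholly above the others. Car9, a membrane form known as a target of hypoxia-inducible factor, stood at 6.13, 3.01 and 2.62 FPKM in siControl and at 13.4, 15.5 and 16.5 in siControl+DFO. Car7 was at 0.364, 0 and 0 FPKM in siControl and at 0.515, 1.02 and 0.618 in siControl+DFO, close to the limit of what was tested. Outside siControl+DFO it reached 0.5 FPKM only in siNCOA4 replicate 1 (0.695). Car7 was thus tested only because it was high in siControl+DFO, and its place among the 3 that rose is no separate support. Car5b, a mitochondrial form, went the other way, from 32.2, 31.4 and 35.9 FPKM in siControl to 15.2, 17.4 and 15.2 in siControl+DFO, and Car13, a cytosolic form, fell from 50.1, 49.3 and 57.6 to 33.4, 26.9 and 27.9 FPKM. The log2 fold changes were 3.67 for Car6, 2.02 for Car9, 2.25 for Car7, -1.05 for Car5b and -0.83 for Car13, with limma adjusted p of 5.32e-07, 0.00113, 0.0428, 1.89e-06 and 2.29e-05.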
